A study of Glycine soja with 14 samples.

Results

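The light-signalling and flowering-time genes described here are 9 genes of the soybean array: the photoreceptor genes PHYA and CRY2B, the light-signalling genes COP10 and STF2, the CONSTANS-like genes COL2A and COL10, the FT family genes FT1A and BFT, and the floral MADS-box gene AP1A. Every soybean probe set whose only gene symbol in the array's annotation table is one of these 9 was taken. The rule itself uses no measured value, but the 9 genes were chosen with earlier results of these data known. This gave 11 probe sets of the 37593 soybean ones, and STF2 and COL10 had 2 each. One further probe set lists STF2 together with BZIP36 and was kept out of all counts.

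The arrays measured transcripts in young leaves of Glycine soja line G07256, wild soybean, whose seedlings were 21 days old when treatment began. Plants grew in dilute Hoagland's solution under 12 h of light a day. The untreated group was sampled at 0 h, and the treated groups after 0.5, 1, 3, 6, 12 and 24 h in the same solution with 50 mM NaHCO3 at pH 8.5. Each group had 2 biological replicates, and each replicate was 1 Affymetrix array from pooled leaves of 3 plants, so each array is a pool and not a plant. No untreated leaves were sampled after 0 h. Hours in bicarbonate and hours since transfer therefore cannot be told apart at any time. Clock time changed with them too, except that at 24 h the hour of day was again that of 0 h.

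In plants, phytochromes such as PHYA sense red and far-red light, and cryptochromes such as CRY2 sense blue light. In Arabidopsis their signal restrains COP10 and its partner proteins, which mark light-promoting factors such as the bZIP protein HY5 for breakdown, and soybean STF2 is a bZIP factor of the HY5 type. The same light input, gated by the circadian clock, sets the daily rhythm of CONSTANS and its relatives. CONSTANS of Arabidopsis activates FT in the leaf, FT protein moves to the shoot tip, and there AP1 marks the start of a flower. In Arabidopsis BFT is an FT relative that delays flowering. Whether the soybean members act in the same way was not tested.

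Values below are intensities, the brightness of a probe set after all arrays were brought to 1 soybean median, 56.4. Changes are differences of log2(intensity + 16) between group means, ± SE, with n = 2 arrays per time. This scale understates the change of dim probe sets. An array's background was the 95th percentile of its 23350 probe sets for 2 other organisms. A change was called where limma's adjusted p over all 37593 probe sets was under 0.05. Background was 14.8 to 28.6, and 66.1 to 77.2% of soybean probe sets lay above it. The summed deposited intensity was 7413137 to 8230026 per array. Replicate arrays correlated at 0.965 to 0.985 across probe sets, and those of 0 h were the least alike. Marker genes of leaf, nodule, seed and flower were set against the leaf label. Stem and root genes were not among them, so leaf was not told apart from other green tissue. Of 17 probe sets for Rubisco activase, the magnesium chelatase gene CHLH and light-harvesting or photosystem genes, 14 lay above background on all 14 arrays. The same held for 0 of 3 for nodule genes, 0 of 11 for seed storage genes and 0 of 1 for the floral gene SEP1. Of these, 0, 7 and 1 were above background on no array. Their highest intensities were 29.7, 31.8 and 10.6, against 12554 for the leaf genes.

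**Figure D1:**
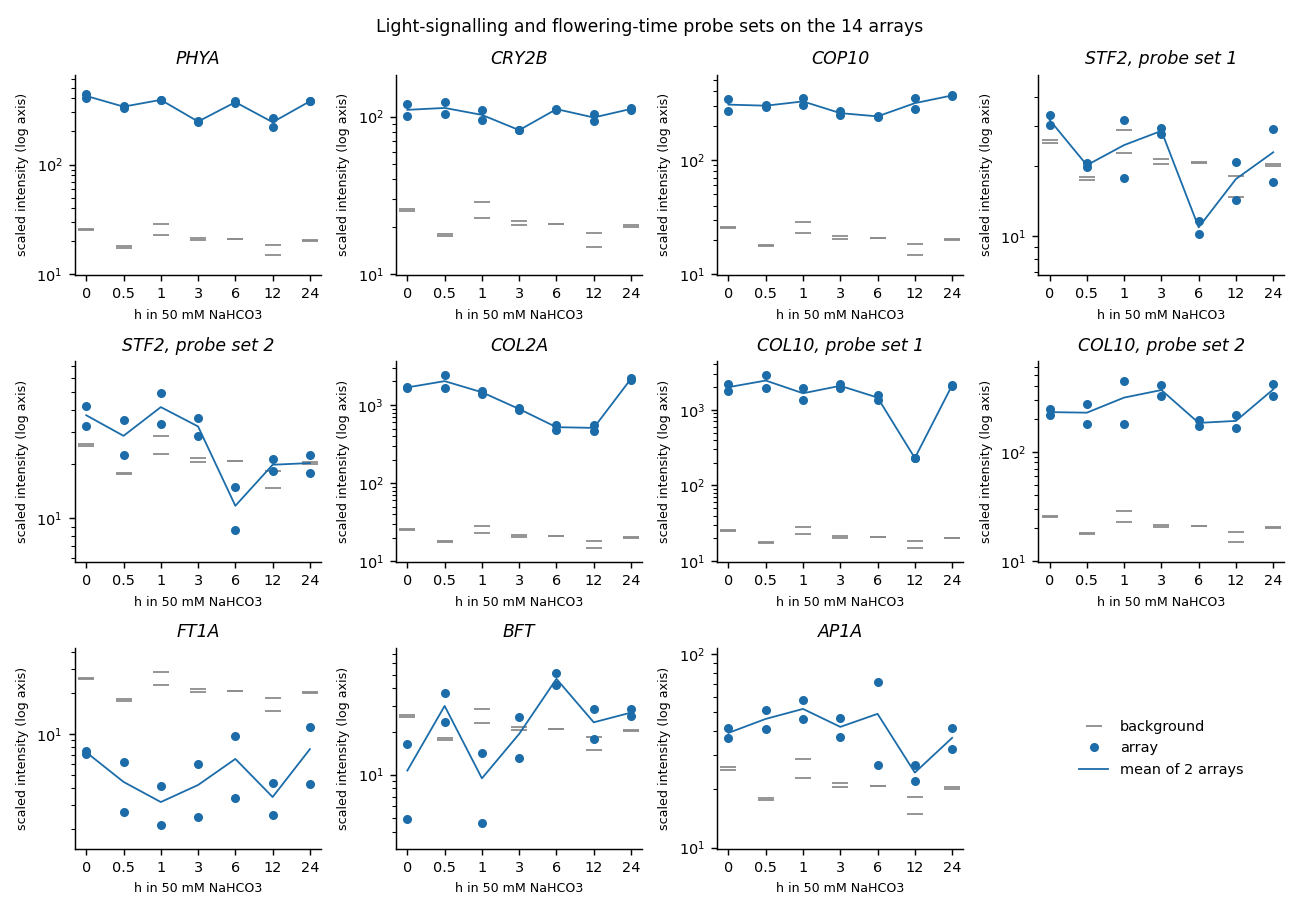
Scaled intensity (log axis) of each of the 11 probe sets on every array against hours in bicarbonate. Points are arrays, lines join the mean of 2 arrays, and grey dashes are each array's background. COL10 probe set 1 drops at 12 h to 230 and 231, COL2A is low at 6 and 12 h, PHYA dips at 3 and 12 h, and FT1A stays under background on all 14 arrays.

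Over the whole course, 5 of the 11 probe sets differed between times by limma's F test, where 30.4% of all soybean probe sets did. These were COL10 probe set 1 (adjusted p = 1.76e-05), COL2A (adjusted p = 3.76e-05), PHYA (adjusted p = 0.00445), STF2 probe set 2 (adjusted p = 0.0174) and BFT (adjusted p = 0.0258). CRY2B, COP10, AP1A, FT1A, STF2 probe set 1 and COL10 probe set 2 did not pass. Without 6 h replicate 2 the count was 3, and without 1 h replicate 1 it was 7.

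PHYA encodes phytochrome A, the phytochrome of plants in deep shade and far-red light. Its probe set read 403 and 440 at 0 h, 330 and 344 at 0.5 h, 386 and 391 at 1 h, 249 and 243 at 3 h, 363 and 377 at 6 h, 221 and 265 at 12 h and 376 and 377 at 24 h. The arrays of 3 h and 12 h were the 4 lowest of the 14, and these times overlapped each other but no other time. PHYA fell by 0.74 ± 0.13 at 3 h (1.71-fold, limma adjusted p = 0.0244) and by 0.76 ± 0.13 at 12 h (1.74-fold, adjusted p = 0.00179). At 6 h, between them, both arrays lay above all 4. Each of the last 4 steps was called: -0.62 ± 0.13 from 1 h to 3 h (adjusted p = 0.0359), 0.56 ± 0.13 from 3 h to 6 h (adjusted p = 0.033), -0.58 ± 0.13 from 6 h to 12 h (adjusted p = 0.0181) and 0.61 ± 0.13 from 12 h to 24 h (adjusted p = 0.00894). At 24 h it lay 0.15 below 0 h, with a 95% interval of -0.44 to 0.13.

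The 12 h fall of PHYA was called without each array in turn, and was lost with only the groups compared in the fit (adjusted p = 0.0611). The 3 h fall was lost in that fit (0.3), with log2(value + 1) (0.0541) and without 0 h replicate 2 (adjusted p = 0.0693), 3 h replicate 1 (0.0976) or 3 h replicate 2 (0.0647). The step from 12 h to 24 h lost its call with only the groups compared (adjusted p = 0.0609) and without 12 h replicate 1 (0.0778), 24 h replicate 1 (0.0562) or 24 h replicate 2 (0.0558). That from 6 h to 12 h lost it with only the groups compared (0.0976) and without 6 h replicate 1 (0.0798), 6 h replicate 2 (0.115) or 12 h replicate 1 (0.118). The 2 earlier steps were lost with log2(value + 1), with only the groups compared and with all probe sets of the array tested (adjusted p from 0.0562 to 0.172). They were not called without any 1 array of 0.5, 3, 6 or 24 h, with adjusted p from 0.0535 to 0.211, and that from 1 h to 3 h also not without either 1 h array (0.107 and 0.147). The values themselves stayed within 0.46 and 0.73 in size over all steps and arrays left out.

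CRY2B encodes a cryptochrome 2 type blue-light receptor. Its probe set ranged from 82.0 to 124 over the 14 arrays with a median of 107, above background throughout. It was lowest at 3 h, at 82.0 and 82.2 against 121 and 100 at 0 h. The groups did not overlap, but the change was -0.36 ± 0.14 with an adjusted p of 0.174, above the threshold, and its 95% interval ran from -0.67 to -0.06. At 12 h, where PHYA was called lower, CRY2B lay at -0.14 with an interval of -0.44 to 0.17.

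COP10, the ubiquitin-conjugating enzyme variant that acts with DET1 in Arabidopsis, lay between 240 and 375, with a median of 300.3. Its lowest group was 6 h, at 244 and 240, and its highest 24 h, at 375 and 363. No time differed from 0 h by the test, with adjusted p from 0.239 to 0.956 and intervals that together spanned -0.66 to 0.60. For CRY2B and COP10 the highest array was 1.51 and 1.56 times the lowest, while it was 12.6 times the lowest for COL10 probe set 1.

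STF2 was dim, and its 2 probe sets were lowest at 6 h. Probe set 1 read 33.2 and 30.3 at 0 h, 20.6 and 19.9 at 0.5 h, 17.7 and 31.7 at 1 h, 27.6 and 29.4 at 3 h, 11.6 and 10.2 at 6 h, 20.9 and 14.4 at 12 h and 28.9 and 17.1 at 24 h. Probe set 2 read 42.0 and 32.7, 34.9 and 22.5, 49.6 and 33.3, 36.2 and 28.5, 14.9 and 8.62, 21.3 and 18.4, and 22.6 and 18 at the same times. At 6 h all 4 values lay below the array background of 20.8. All 4 values at 0 h lay above theirs of 25.3 and 25.9. Over the course, probe set 1 was above background on 9 of 14 arrays and probe set 2 on 11. Only 1 of 2 arrays was above it at 1, 12 and 24 h for probe set 1, and at 24 h for probe set 2.

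Both STF2 probe sets were called lower at 6 h, by -0.83 ± 0.19 (limma adjusted p = 0.0206) and -0.95 ± 0.20 (adjusted p = 0.0128). With 6 h held at background, geometric means of intensity were at least 1.53-fold and at least 1.78-fold lower. These bounds include the difference in background between the 0 h and 6 h arrays. Divided by its array's background, 0 h read 1.31 and 1.17 for probe set 1 and 1.66 and 1.26 for probe set 2. The step from 3 h to 6 h was called for probe set 2 (-0.81 ± 0.20, adjusted p = 0.0422) and missed for probe set 1 (-0.72 ± 0.19, adjusted p = 0.056). At 12 h neither passed (-0.51, adjusted p = 0.0761, and -0.57, adjusted p = 0.0592), nor at 24 h (-0.31, adjusted p = 0.372, and -0.55, adjusted p = 0.127). With all values floored at background both 6 h calls were lost (adjusted p = 0.0783 and 0.0596), and that of probe set 2 also with only the groups compared (0.0567). The 6 h call of probe set 1 was lost without either 0 h array or either 6 h array, with adjusted p from 0.0536 to 0.114. That of probe set 2 was lost without 0 h replicate 1 (0.0751) or 6 h replicate 2 (0.109). The step of probe set 2 was lost under 5 other settings, with adjusted p up to 0.182, and was not called without any 1 array of 3, 6, 12 or 24 h, with adjusted p from 0.0542 to 0.299.

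The probe set annotated to both STF2 and BZIP36 was brighter and above background on all 14 arrays. It read 359 and 276 at 0 h, 205 and 167 at 0.5 h, 232 and 201 at 1 h, 233 and 245 at 3 h, 52.0 and 62.1 at 6 h, 136 and 136 at 12 h and 169 and 138 at 24 h. It fell by 2.18 ± 0.17 at 6 h (adjusted p = 3.17e-05), by 1.13 ± 0.17 at 12 h (adjusted p = 0.000904) and by 0.97 ± 0.17 at 24 h (adjusted p = 0.0158). From 3 h to 6 h it fell by 1.81 ± 0.17 (adjusted p = 0.00023) and from 6 h to 12 h it rose by 1.06 ± 0.17 (adjusted p = 0.00358). Its 2 genes cannot be told apart in this signal. Like the 2 single-gene probe sets it was lowest at 6 h.

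**Figure D2:**
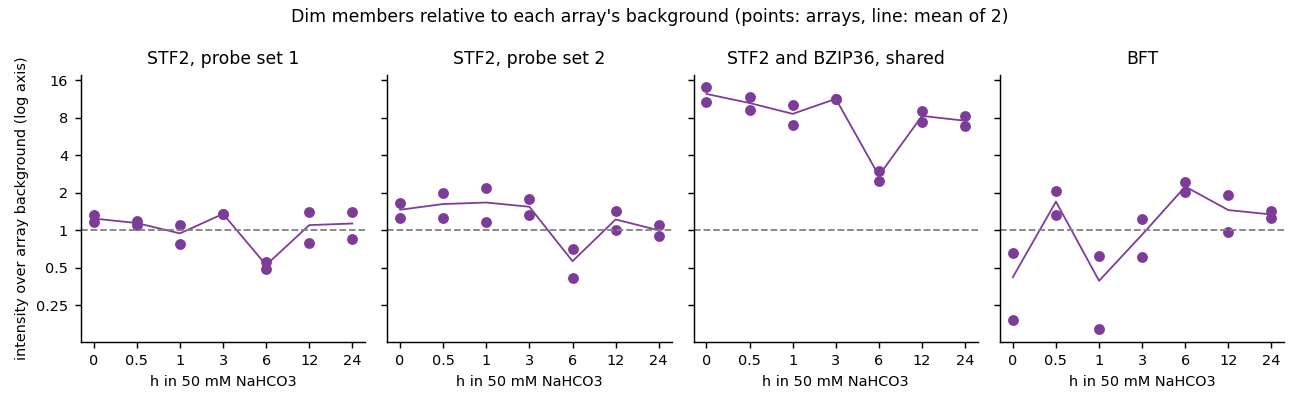
Intensity divided by the background of the same array (log axis) for the 2 STF2 probe sets, the probe set shared by STF2 and BZIP36, and BFT. Points are arrays, lines join the mean of 2 arrays, and the dashed line at 1 is background. Both STF2 probe sets pass under background at 6 h, while BFT is above it there and below it at 0 and 1 h.

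COL2A, a close relative of CONSTANS with B-box zinc fingers and a CCT domain, was bright and declined in steps. Its probe set read 1691 and 1670 at 0 h, 1632 and 2410 at 0.5 h, 1515 and 1398 at 1 h, 854 and 923 at 3 h, 478 and 562 at 6 h, 464 and 555 at 12 h and 2100 and 2229 at 24 h. From 3 h to 12 h every array lay below every array of 0, 0.5, 1 and 24 h. COL2A fell by 0.91 ± 0.18 at 3 h (1.89-fold, limma adjusted p = 0.0339), by 1.67 ± 0.18 at 6 h (3.24-fold, adjusted p = 0.000281) and by 1.70 ± 0.18 at 12 h (3.31-fold, adjusted p = 9.89e-05).

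The decline of COL2A was called between 3 h and 6 h (-0.76 ± 0.18, adjusted p = 0.0379), and the step from 1 h to 3 h missed the threshold (-0.70 ± 0.18, adjusted p = 0.067). From 6 h to 12 h the arrays overlapped, with a change of -0.03 and a 95% interval of -0.43 to 0.37. From 12 h to 24 h COL2A rose by 2.06 ± 0.18 (4.26-fold, adjusted p = 2.37e-05). At 24 h both arrays lay above both 0 h arrays, but the difference of 0.36 ± 0.18 did not pass (adjusted p = 0.267, interval -0.04 to 0.76).

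For COL2A the changes at 6 h and 12 h and the step from 12 h to 24 h were called without each array in turn, with adjusted p of at most 0.00512, 0.00167 and 0.000621. The 3 h call was lost without either array of 0, 3 or 24 h, with adjusted p from 0.0555 to 0.138, under quantile normalization (0.0537), with log2(value + 1) (0.0689) and with only the groups compared (0.296). The step from 3 h to 6 h was lost without either array of 1, 3, 6 or 24 h, with adjusted p from 0.0502 to 0.199, under quantile normalization (0.0814), with log2(value + 1) (0.0771), with only the groups compared (0.0818) and with all probe sets of the array tested (0.0539).

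COL10, another CONSTANS-like gene, was low at 12 h in 1 of its 2 probe sets. Probe set 1 read 1768 and 2201 at 0 h, 1958 and 2894 at 0.5 h, 1357 and 1941 at 1 h, 2186 and 1947 at 3 h, 1542 and 1353 at 6 h, 230 and 231 at 12 h and 2145 and 2057 at 24 h. The 2 arrays of 12 h stood far below all others, the next lowest being 1353. The change at 12 h was -3.01 ± 0.21 (8.57-fold lower, adjusted p = 4.81e-06), which ranked 135th of 37593 by p at that time.

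Before 12 h no change from 0 h was called for COL10 probe set 1. At 6 h both arrays lay below both 0 h arrays, with a change of -0.45 ± 0.21 (limma adjusted p = 0.229, interval -0.92 to 0.02). The step from 6 h to 12 h was -2.57 ± 0.21 (6.27-fold lower, adjusted p = 5.35e-05) and that from 12 h to 24 h was 3.1 ± 0.21 (9.12-fold higher, adjusted p = 3.57e-06). At 24 h the arrays overlapped those of 0 h, with a difference of 0.09 and an interval of -0.38 to 0.56. All 3 calls of COL10 held without each array in turn, with adjusted p of at most 0.00151.

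Probe set 2 of COL10 did not show this fall. It read 215 and 245 at 0 h, 180 and 275 at 0.5 h, 179 and 446 at 1 h, 321 and 411 at 3 h, 196 and 171 at 6 h, 165 and 218 at 12 h and 325 and 417 at 24 h. Its replicates differed more, with an SE of 0.34, and its change at 12 h was -0.26 with a 95% interval of -1.0 to 0.49, which does not reach the fall of probe set 1. From 12 h to 24 h its arrays did not overlap, and the change of 0.90 ± 0.34 missed the threshold (adjusted p = 0.103). It was called with only the groups compared (limma adjusted p = 0.0371), and also without either 1 h array, where it stayed at 0.90. From 3 h to 6 h the arrays of probe set 2 did not overlap either. That change of -0.93 ± 0.34 missed the threshold (limma adjusted p = 0.154) and was called only without either 1 h array. In the main fit the calls for COL10 therefore rest on 1 probe set.

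**Figure D3:**
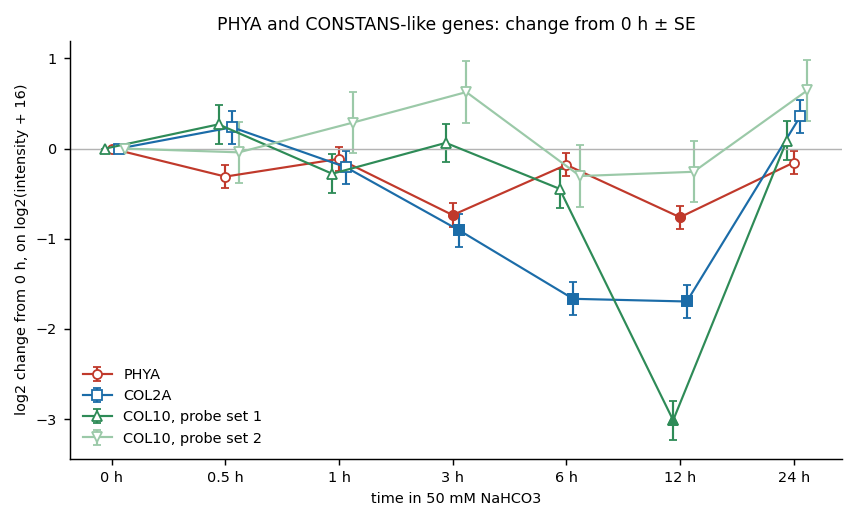
Change from 0 h on the log2(intensity + 16) scale, ± SE from the fit over all 14 arrays, for PHYA, COL2A and both COL10 probe sets against time in bicarbonate. Filled symbols passed the test at an adjusted p under 0.05, and none is filled at 24 h. COL10 probe set 1 reaches -3.01 at 12 h, COL2A holds -1.67 and -1.70 at 6 and 12 h, and PHYA reaches -0.74 and -0.76 at 3 and 12 h.

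FT1A, a soybean FT homologue, was below background on all 14 arrays. Its probe set ranged from 2.14 to 11.2, so no direction can be read for it in these leaves.

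BFT was near background and highest at 6 h. Its probe set read 16.4 and 4.9 at 0 h, 23.4 and 37 at 0.5 h, 14.3 and 4.57 at 1 h, 25.4 and 13.1 at 3 h, 50.8 and 42.4 at 6 h, 28.7 and 17.7 at 12 h and 25.7 and 28.5 at 24 h. It lay above background on 8 of 14 arrays: both arrays of 0.5, 6 and 24 h and 1 each of 3 and 12 h. BFT rose by 1.26 ± 0.27 at 6 h (adjusted p = 0.0144), and as neither 0 h array was above background this is at least 1.81-fold. At 24 h it was 0.73 ± 0.27 above 0 h and did not pass (adjusted p = 0.14). The 6 h call was lost with values floored at background (0.86, adjusted p = 0.0579), with log2(value + 1) (0.053), and without 0 h replicate 2 (0.0828), 6 h replicate 1 (0.101) or 6 h replicate 2 (0.0584).

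AP1A, the APETALA1-like gene, was above background on all 14 arrays, between 22.1 and 71.2 with a median of 41.0. Its 2 arrays of 12 h, 22.1 and 26.7, were lower than both of 0 h, 41.3 and 36.8. The change of -0.45 ± 0.27 missed the threshold (adjusted p = 0.256). The arrays of 6 h read 26.8 and 71.2, the widest pair. The step from 6 h to 12 h, -0.60 ± 0.27 (adjusted p = 0.194), was called only without 6 h replicate 1 (-1.11, adjusted p = 0.0188).

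By time, 0 of the 11 probe sets were called at 0.5 h by limma, with 2 at an unadjusted p under 0.05, beside a share of 2.54% among all soybean probe sets. At 1 h 0 were called and 0 had an unadjusted p under 0.05, against 0% of all. At 3 h 2 fell, PHYA and COL2A (2.46% of all called in either direction). At 6 h COL2A and both STF2 probe sets fell and BFT rose, 4 of 11, or 36.4%, beside 9.99% of all. Since the STF2 probe sets stand for 1 gene, these 4 are 3 genes. At 12 h PHYA, COL2A and COL10 probe set 1 fell, 3 of 11 or 27.3%, which is close to the 24.4% for the array's soybean features as a whole. The median change of the 11 was -0.45 at 12 h and -0.30 at 6 h, against -0.03 and -0.02 for all soybean probe sets.

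At 24 h, when the hour of day was again that of 0 h, 0 of the 11 were called by limma, with 2 at an unadjusted p under 0.05, STF2 probe set 2 and BFT, where 5.21% of all were called. The median change was 0.02. Among the steps, 0 were called from 0.5 h to 1 h by limma, with 3 at an unadjusted p under 0.05 (3.75% of all called), 1 from 1 h to 3 h (PHYA, 2.39% of all) and 3 from 3 h to 6 h (PHYA higher, COL2A and STF2 probe set 2 lower, 4.97% of all). From 6 h to 12 h 2 fell, PHYA and COL10 probe set 1 (9.51% of all). From 12 h to 24 h 3 rose, PHYA, COL2A and COL10 probe set 1 (15.1% of all). With so few members, these shares describe the 11 probe sets and nothing beyond them.

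Another 6 genes on the array matched a list of light-signalling and flowering symbols, the MADS-box genes AGL1L, AGL3L, MADS28, NMH7 and SEP1 and the FT relative MFT, with 8 probe sets. AGL3L was above background on all 14 arrays and 1 NMH7 probe set on 3, and the remaining 6 probe sets on none. AGL3L rose at 12 h by 0.82 ± 0.24 (adjusted p = 0.0303), from a mean of 104 to 197, and was the only one of the 8 called at any time. Of 7 clock probe sets, 2 rose and 4 fell at 12 h, where 24.4% of all soybean probe sets were called in either direction. Both probe sets of LHY, a morning clock factor, fell at 12 h (-3.79 ± 0.22 and -3.98 ± 0.28), and LUXC, an evening one, rose by 2.45 ± 0.20 in its brighter probe set. At 24 h LHY was 0.89 ± 0.22 (adjusted p = 0.0439) and 0.54 ± 0.28 (adjusted p = 0.274) above 0 h.

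Genes of light harvesting, carbon fixation and chlorophyll synthesis, many of them light-regulated, gave 22 probe sets of 10 genes. At 6 h 7 fell and 0 rose, at 12 h 13 fell and 0 rose with a median of -0.83, and at 24 h 3 fell. Of all soybean probe sets, 9.99%, 24.4% and 5.21% were called at these times in either direction. The magnesium chelatase gene CHLH fell by 2.25 ± 0.13 at 12 h, from a mean of 5097 to 1055. The summed signal of the leaf markers was 73370 and 74616 at 0 h, 41642 and 34538 at 12 h and 72418 and 70577 at 24 h. In these bulk samples fewer cells of a type and less RNA per cell cannot be told apart, and the part of this shift in the 12 h values of PHYA, COL2A and COL10 was not tested.

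**Figure D4:**
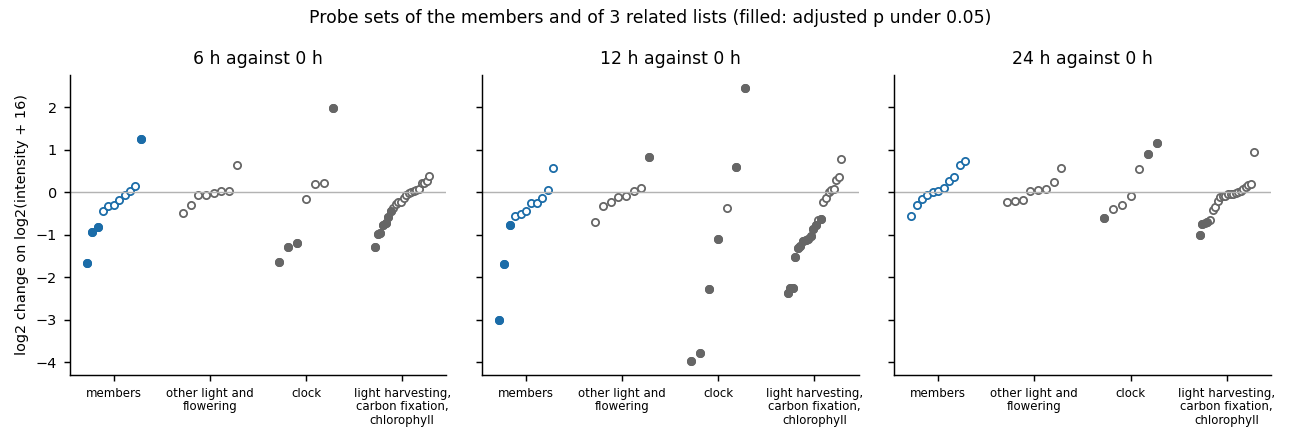
Change from 0 h at 6, 12 and 24 h for the 11 member probe sets and for 8 other light and flowering, 7 clock and 22 light-harvesting, carbon-fixation and chlorophyll probe sets, each sorted by its change. Filled points passed the test. At 12 h 3 members are filled, all below 0, and at 24 h no member is.

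For each member gene that passed the F test, the named genes with the most similar course were taken by the root mean square difference of the 6 log2 changes from 0 h, with no test. All the changes share the 0 h arrays. COL10 probe set 1 lay nearest to a CAB3 probe set (0.38 log2), a chlorophyll a/b-binding protein gene, then to CHLH (0.42) and SFERH-3 (0.49). The CAB3 probe sets differed among themselves. In the one named the highest array was 11.5 times the lowest, and over all of them this ratio ran from 1.66 to 18.6. COL2A lay nearest to SUT1 (0.26), a sucrose transporter, then to WNK13 (0.28) and PHR (0.29). PHYA was nearest to SOYCTA (0.13), SEO-F3 (0.15) and GM2S-1 (0.19), none of which passed the F test, and GM2S-1 reached an intensity of 10.2 at most, below the lowest background of 14.8. STF2 probe set 2 was nearest to 2 SPCP1 probe sets (0.12 and 0.15) and FAD2-2 (0.18), a fatty acid desaturase. These reached 6536, 5180 and 2925, whereas STF2 was dim and below background at 6 h. The scale understates the change of STF2 more than theirs, so its distances to them depend on the scale. BFT was nearest to HIUHase (0.21), which did not pass the F test (adjusted p = 0.498), NAC1 (0.23) and J1 (0.24).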

How the data were processed

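Per the labels' protocols, total RNA from frozen leaves was turned into biotinylated cRNA and hybridised to 1-colour Affymetrix arrays. The deposited table holds 1 linear intensity per probe set and array for 61170 probe sets. How the authors summarised and scaled it is not given in the sources used here. Names came from the array's annotation table. None of the 9 members matched the Glycine soja gene table, so no positions are given, and no sequences were used.

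From the deposited intensity values, arrays were scaled to 1 median over soybean probe sets, and 7 group means were fitted to log2(value + 16) on 14 arrays with limma 3.58.1 in R 4.3.3 (lmFit, eBayes, 7 residual and 4.24 prior degrees of freedom). Contrasts were 6 times against 0 h, 5 consecutive steps and an F test, two-sided, with Benjamini-Hochberg adjustment over 37593 soybean probe sets. The number of arrays limits precision: the median SE was 0.19. The fit was tested on simulated data, with changes added only to probe sets whose mean lay above background. That test did not cover changes of dimmer probe sets. All members are named at every time, plus up to 3 probe sets from each related list and 3 genes of similar course. Members and lists were chosen with earlier results of these data known. Alternatives covered normalization, pseudocount, background floor, dim filter, replicate block, variance model, probe sets tested, times and arrays left out.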

Additional observations from a re-analysis of the deposited data

How the results depend on the processing

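With 2 arrays per time, calls near the threshold depend on single arrays. Of 18 called changes of members, 6 held under all settings tried: COL2A at 6 and 12 h, COL10 probe set 1 at 12 h, and the steps of COL2A from 12 h to 24 h and of COL10 probe set 1 from 6 h to 12 h and from 12 h to 24 h. The fall of PHYA at 12 h held without each array and ended with only the groups compared (adjusted p = 0.0611). The other called changes ended without at least 1 array.

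Counts of called members that moved by over 1.5 times were these. With quantile normalization 1 was called at 3 h. With log2(value + 1) 0 were called at 3 h, 0 from 1 h to 3 h and 1 from 3 h to 6 h. With log2(value + 64) 2 were called from 1 h to 3 h. With only the groups compared 0 were called at 3 h, 0 from 1 h to 3 h, 0 from 3 h to 6 h and 1 from 6 h to 12 h. Without scaling, and without the 0.5 h arrays, 0 were called from 1 h to 3 h. With all probe sets of the array tested, 0 were called from 1 h to 3 h and 0 from 3 h to 6 h. With values floored at background, 2 were called at 0.5 h, 1 at 6 h, 6 at 12 h and 1 from 0.5 h to 1 h, and FT1A changed sign to 0.53 in that step. By construction the floor gives dim probe sets the differences in background between arrays, and 19594 of all soybean probe sets were then called at 12 h. Smaller moves were 3 at 6 h with log2(value + 1) or only the groups compared, 2 at 12 h with only the groups compared, 2 to 4 from 3 h to 6 h over 6 settings, 3 from 6 h to 12 h with the floor, and, by the F test, 7 with the floor and 4 with log2(value + 1) or without the 12 h arrays. Leaving out single arrays gave 0 to 2 at 3 h, 1 to 4 at 6 h, 3 to 4 at 12 h, 0 to 1 from 1 h to 3 h, 0 to 4 from 3 h to 6 h, 1 to 2 from 6 h to 12 h, 2 to 4 from 12 h to 24 h and 3 to 7 by the F test. FT1A changed sign to 0.036 from 0.5 h to 1 h without 0.5 h replicate 2. Apart from the floor, the causes were not tested.

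Replicate differences correlated between times at -0.22 to 0.23, over 0.1 in 4 of 21 pairs of times. These correlations cannot settle whether arrays with the same replicate number were handled together. With the replicate block 1 member was called at 24 h, STF2 probe set 2 (-0.55, adjusted p = 0.0478), and 1608 probe sets in all against 1957. The block also called STF2 probe set 2 at 12 h (adjusted p = 0.0133) and COL10 probe set 2 from 12 h to 24 h (0.0468).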
